A study of Mus musculus with 9 samples.

Results

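Solute carriers are membrane proteins, named Slc followed by a family number, that move nutrients, ions, metals and metabolites across the plasma membrane and the membranes of organelles. The array held 337 genes whose name has that form, in 46 families, and 134 of them were detected. These 134 genes were selected on their own signal: a gene was kept if a probe was well above background on at least 4 of the 9 arrays, and the brightest such probe stands for the gene. Members come from 41 of the 46 families, and Slc18, Slc32, Slc34, Slc40 and Slc47 had none. RNA was taken from extracellular vesicles (EVs), membrane-bound particles shed by cells, of mouse embryonic fibroblasts (MEFs), which are cells of embryonic connective tissue in culture. One group of 5 arrays came from MEFs treated with phosphate-buffered saline (PBS) and the other group of 4 arrays from control MEFs. The labels do not give whether PBS-treated cells were also pulsed by electroporation, which the study used to transfect cells, nor whether the arrays of a group came from separate cultures, so the p-values rest on differences between arrays that may be only technical. A lower signal can come from less RNA per vesicle or from fewer vesicles that hold it, and these cannot be told apart here.

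Transporters of this group set what a fibroblast can take up and what its mitochondria can exchange. Families Slc1, Slc7 and Slc38 carry amino acids, and Slc2 carries glucose and related sugars. Slc30 and Slc39 move zinc and other divalent metals out of and into the cytosol. Slc35 supplies sugar nucleotides to the Golgi and endoplasmic reticulum. Slc25 holds mainly carriers of the inner mitochondrial membrane. The whole Slc25 family is called mitochondrial carriers here, although not every member lies in that membrane. Transcripts of solute carriers are carried in EVs as part of the released RNA, which in vesicles includes many fragments. Only RNA was measured, not carrier protein or transport.

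Signals are log2 values relative to each array's 75th percentile over the probes detected on all 9 arrays, so that negative values lie under that percentile, and the levels of different probes are not comparable. The detected Slc genes numbered 134, 152, 123, 128 and 141 in the PBS-treated arrays and 117, 116, 90 and 91 in the control arrays, and every PBS-treated array held more of them than every control array. Over all probes the share well above background was 29.6 to 34.5% in the PBS-treated and 22.6 to 27.9% in the control arrays. Of the other 203 Slc genes, 138 were well above background on no array. The 55 members well above background on all 9 arrays do not depend on which group was bright. They are counted separately for the members as a whole and for some classes. Another 66 members were seen in both groups but not on every array, 12 were seen in no control array and 1 in no PBS-treated array. A member seen in 1 group alone passed the rule through that group, and its difference is partly a consequence of the choice. At the edge of the rule, 14 members were well above background on 4 arrays, among them Slc25a10 at -5.90, -6.23, -6.11, -6.12 and -6.01 and -5.34, -5.21, -5.44 and -6.41, and 14 other Slc genes on 3 arrays just missed it, among them Slc25a42 at -5.39, -5.04, -6.12, -5.56 and -5.43 in the PBS-treated and -5.81, -6.40, -6.66 and -6.56 in the control arrays.

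Comparing EV RNA of PBS-treated with that of control MEFs, 38 members were higher, 38 were lower and 58 were not called (limma, Benjamini-Hochberg adjusted p under 0.05 over all 14307 genes tested). Over all genes 31.5% were called higher and 20.7% lower, against 28.4% and 28.4% of the members, and the share called in either direction was 56.7% of members beside 52.2% of all genes. Among the 55 members detected everywhere, 14 were higher and 22 lower, 25.5% and 40%, beside 31.3% and 27.6% of the 7170 genes detected everywhere. The groups did not overlap for 73 members, where 47% of all genes had groups that did not overlap. The median difference (PBS-treated minus control) was -0.27 over the members and -0.02 over all genes tested, and differences ran from -4.16 to 2.56. The counts depend on the scaling: with scaling to spike-in probes, RNAs added in fixed amounts, 72 members were higher and 9 lower, and with a normexp background correction, which models background and signal together, 9 were higher and 57 lower. The percentile over all probes gave 26 and 15. The median difference of all genes moved to 1.27 with spike-ins and -0.51 with normexp. Of the 76 called members, 14 were called in the same direction under all 7 scalings tried, 5 of them higher and 9 lower, and the account starts from these where it can.

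The classes of carrier did not shift alike. Mitochondrial carriers (26 members) had a median difference of 0.74 and metal carriers (15 members) of 0.57, and nucleotide sugar and nucleoside carriers (16 members) lay at 0.15. Over members detected on all 9 arrays these medians were 0.64 (15 members), 0.07 (5 members) and -0.08 (9 members). All genes detected everywhere had a median of -0.07, so the metal and nucleotide sugar medians lay near it there. All other classes lay under the median of all genes: amino acid and peptide carriers (20 members) at -1.24, carriers of inorganic ions and acid (18 members) at -1.06, sugar carriers (11 members) at -0.75, carriers of carboxylates, organic ions and lipids (23 members) at -0.74 and vitamin and other carriers (5 members) at -1.86. Amino acid carriers detected on all 9 arrays (8 members) lay at -0.89. The arrays lay on 2 slides. Every slide 2 array lay above every slide 1 array for 6 of the 20 amino acid and 7 of the 23 carboxylate carriers. The 19 members with that pattern had a median of -1.29, and 1 was called. With the slide as a block the amino acid and carboxylate medians were -1.03 and -0.71. How far these members set the class medians was not tested. Set against the median of all genes under the same scaling, mitochondrial carriers lay 0.40 to 0.76 above it and amino acid carriers at -1.23 to -0.40 from it under the 7 scalings. The scaling reported, the percentile over all probes and the spike-in scaling each subtract a single value per array. The distance from all genes is therefore the same under them by construction, 0.76 and -1.23, and only the other scalings could change it. The absolute medians did turn with the setting: mitochondrial carriers stood at -0.10 and metal carriers at -0.17 with normexp, and amino acid carriers at 0.05 with spike-in scaling.

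**Figure D1:**
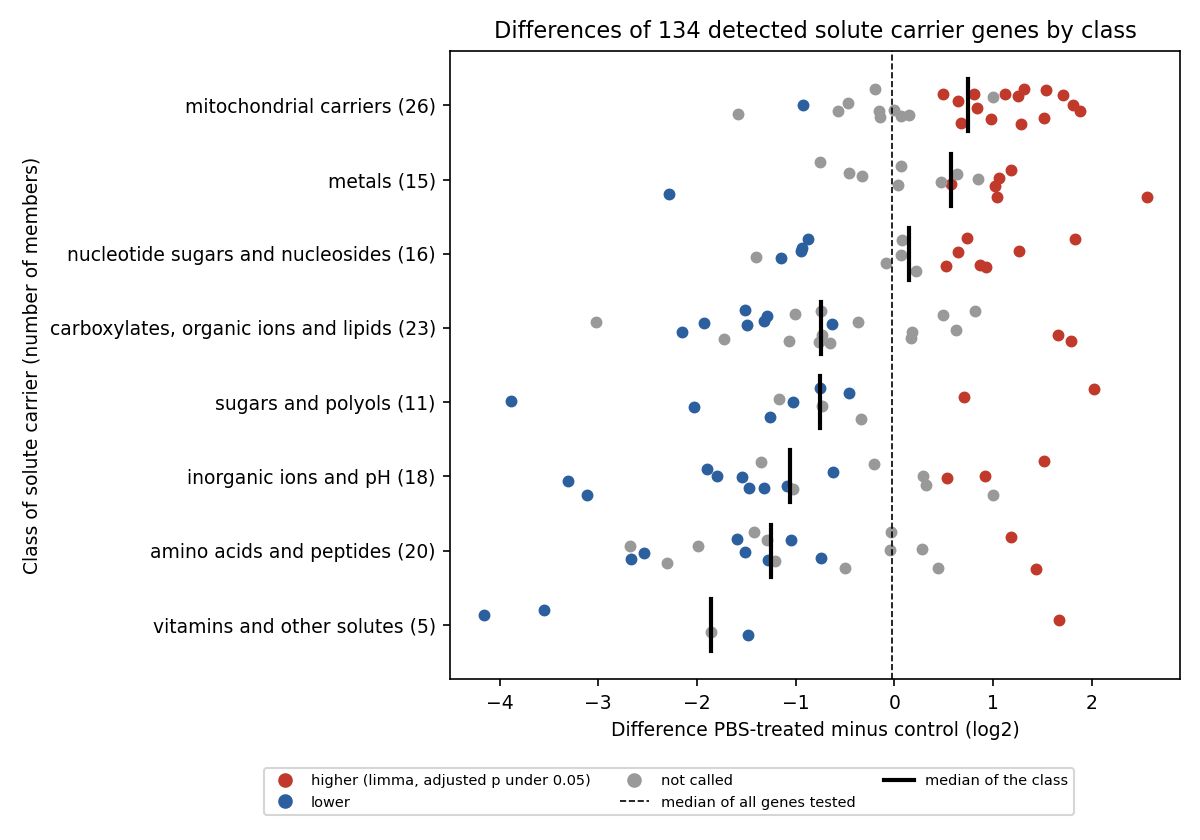
Difference between PBS-treated and control EV RNA (x axis, log2) of each of the 134 members, by class of carrier (y axis). Each point is a gene, red where higher, blue where lower and grey where not called by limma, black bars are class medians and the dashed line is the median of all genes tested, -0.02. With this scaling mitochondrial and metal carriers lie mostly right of the line and amino acid, ion and sugar carriers mostly left of it.

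**Figure D2:**
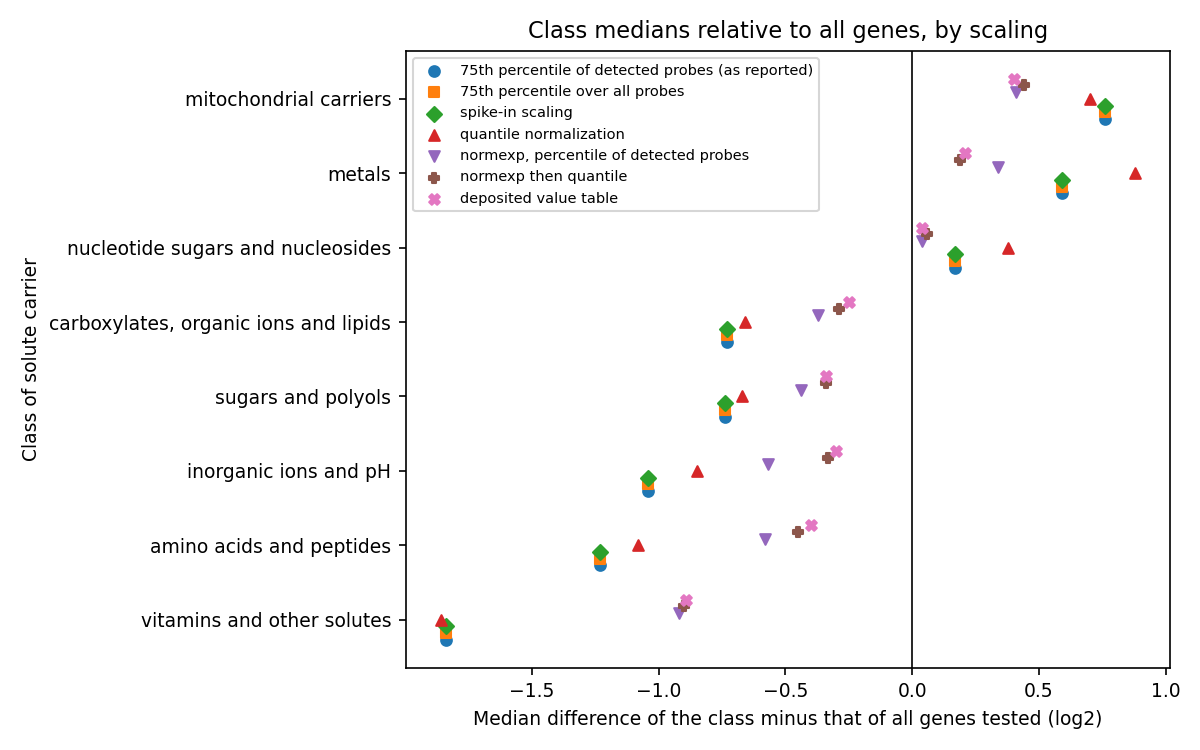
Median difference of each class minus the median of all genes tested (x axis, log2) under 7 scalings of the same arrays (marker shapes), by class (y axis). Mitochondrial, metal and nucleotide sugar carriers lie right of 0 and the other 5 classes left of 0 under each of the 7 scalings. The scaling reported, the percentile over all probes and the spike-in scaling give the same position by construction.

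Promoter windows show where the leading members start. RefSeq windows, which reach from upstream of the start to shortly after it, were matched by name for 106 of the 134 members, on the build GRCm38.p6. The 120 bases before the start are shown for 3 large fitted rises and 3 large fitted falls among members with a single window. They are examples and not the full top of the ranking. Larger changes not shown include the falls of Slc23a2 (-4.16) and Slc14a2 (-3.55) and the rises of Slc39a14 (2.56) and Slc25a32 (1.88). Capitals mark matches to 4 short response motifs on both strands. These are TGATGNAA (composite element bound by ATF4), ACGTG (hypoxia core), TGCNCNC (metal response core) and TGACNNNGC (antioxidant core). The first 3 rose and the last 3 fell.
Slc2a1, GRCm38.p6 chr4:119108625-119108744, strand +: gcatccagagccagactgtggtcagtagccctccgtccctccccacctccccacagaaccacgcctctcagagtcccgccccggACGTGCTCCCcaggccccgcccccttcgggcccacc
Slc35a3, GRCm38.p6 chr3:116712281-116712400, strand -: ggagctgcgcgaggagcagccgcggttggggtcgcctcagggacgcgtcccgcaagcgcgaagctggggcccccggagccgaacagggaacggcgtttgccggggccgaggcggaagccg
Slc25a33, GRCm38.p6 chr4:149774268-149774387, strand -: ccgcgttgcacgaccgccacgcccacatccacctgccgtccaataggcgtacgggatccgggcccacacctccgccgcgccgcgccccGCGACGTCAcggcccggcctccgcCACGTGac
Slc2a10, GRCm38.p6 chr2:165503777-165503896, strand +: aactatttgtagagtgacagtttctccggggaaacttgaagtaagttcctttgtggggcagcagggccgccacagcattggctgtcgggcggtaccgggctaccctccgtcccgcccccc
Slc26a6, GRCm38.p6 chr9:108853923-108854042, strand +: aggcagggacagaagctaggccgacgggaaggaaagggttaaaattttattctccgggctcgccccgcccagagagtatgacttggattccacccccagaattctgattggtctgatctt
Slc9a8, GRCm38.p6 chr2:167421590-167421709, strand +: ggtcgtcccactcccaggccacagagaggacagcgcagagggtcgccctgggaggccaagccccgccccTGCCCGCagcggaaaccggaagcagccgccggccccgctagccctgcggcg
The hypoxia core lies in the stretch shown for Slc2a1 and Slc25a33, the latter as the palindrome that matches on both strands, and Slc25a33 also holds the antioxidant core. The metal response core lies in Slc2a1, where it overlaps the end of the hypoxia core, and in Slc9a8. No match to any of the 4 motifs lies in these 120 bases of Slc35a3, Slc2a10 or Slc26a6. Over the whole windows the hypoxia core was held by 38 of 106 members (35.8%), 11 of 28 higher and 7 of 30 lower ones, beside 21.8% of all 27025 genes with a window. The antioxidant core was held by 31 members (29.2%, 14% of all genes), the metal response core by 72 (67.9%, 53.6%) and TGATGNAA by 1 (0.9%, 4.5%). The 27025 genes include genes not detected in these EVs, and a gene with more than 1 window counted if any window held the motif. Members and all genes are thus unlike sets, and the shares do not show an excess particular to carriers. A match is a string of letters and not a shown binding site.

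Of 5 vitamin and other carriers, 3 were lower and 1 higher (2 and 1 with spike-in scaling), beside 20.7% and 31.5% of all genes. Slc23a2 encodes the sodium-coupled ascorbate (vitamin C) transporter of most tissues, and its probe lies at chr2:131878512-131878571 (mm9). Slc23a2 read -6.54, -6.85, -8.46, -7.78 and -8.29 in the PBS-treated arrays and -3.17, -3.32, -2.55 and -4.65 in the control arrays. All control arrays lay above all PBS-treated arrays, but the probe was well above background in 3 of 4 control and 2 of 5 PBS-treated arrays. The difference was -4.16 ± 0.54 (SE) as measured (limma, adjusted p = 0.000281), and -2.87 with spike-in scaling and -2.02 with normexp. Slc2a10, a glucose transporter of the endomembranes that also carries oxidised vitamin C, was also lower. Slc2a10 read -7.20, -6.86, -6.35, -7.55 and -7.56 in the PBS-treated arrays and -3.18, -2.92, -3.19 and -3.59 in the control arrays, with the groups apart (probe at chr2:165344713-165344772). Only 2 of 5 PBS-treated arrays were well above background, against 4 of 4 control arrays, and the measured difference was -3.88 ± 0.28 (SE; limma, adjusted p = 1.35e-05), and -1.90 with normexp. Slc14a2, a urea transporter known from the kidney, was seen in control arrays alone. Slc14a2 read -8.95, -9.13, -7.78, -5.16 and -6.20 in the PBS-treated arrays and -4.23, -4.05, -3.57 and -3.74 in the control arrays. The slide 2 arrays of the PBS-treated group lay nearest to the controls, without reaching them. With the scaling reported its signal was at least 5.99-fold lower in PBS-treated arrays. The difference was smaller than that bound with spike-in scaling (-2.26) and with normexp (-1.61). It passed the rule through the control arrays, and the call was lost without control replicates 3 and 4. Slc19a1, the reduced folate carrier, ran the other way and was seen on all 5 PBS-treated and no control array. Its mean was -4.60 ± 0.22 over 5 PBS-treated and -6.28 ± 0.41 over 4 control arrays (SD), at least 1.75-fold higher, but with normexp the difference turned to -0.27. Slc46a1, the proton-coupled folate transporter, was lower at -1.48, and its call was lost on leaving out any of 7 single arrays. On slide 1 alone it differed by -0.46 and on slide 2 alone by -2.45.

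Among sugar carriers, 2 of 11 members were higher and 6 lower (3 and 2 with spike-in scaling), beside 31.5% and 20.7% of all genes. Slc2a1 encodes GLUT1, the widespread basal glucose transporter and a well-known gene of the hypoxia response. Slc2a1 read -3.41, -3.51, -3.61, -3.70 and -3.50 in the PBS-treated arrays and -6.17, -5.24, -4.77 and -6.11 in the control arrays. Every PBS-treated array lay above every control array, but only 1 of 4 control arrays was well above background, against 5 of 5. The difference was 2.03 ± 0.29 (SE) as measured (limma, adjusted p = 0.00049; probe at chr4:118809864-118809923), and 0.23 with normexp, where the call was lost. Slc2a6 (difference -1.25) and Slc45a4, a putative sugar carrier (-2.02 ± 0.22 SE, limma, adjusted p = 9.73e-05), were lower. Slc45a4 read -4.87, -4.99, -5.30, -4.56 and -4.72 in the PBS-treated arrays and -3.19, -3.13, -2.39 and -2.74 in the control arrays, apart in every array. With spike-in scaling Slc2a6 stood at 0.04 and Slc45a4 at -0.73. Slc2a12 was higher at 0.71 (limma, adjusted p = 0.049) with overlapping groups. That call was lost on leaving out any of 7 single arrays, and the difference turned to -0.63 with normexp. Of 6 glucose and lactate carriers listed for hypoxia, 3 were members, and only Slc2a1 was called. Slc16a1 (MCT1, a lactate and pyruvate carrier) differed by 0.18 ± 0.86 and Slc37a4 (the glucose 6-phosphate carrier) by -0.34 ± 0.46, both within the spread. Slc2a3 and Slc2a4 were well above background on no array and Slc16a3 on 1.

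**Figure D3:**
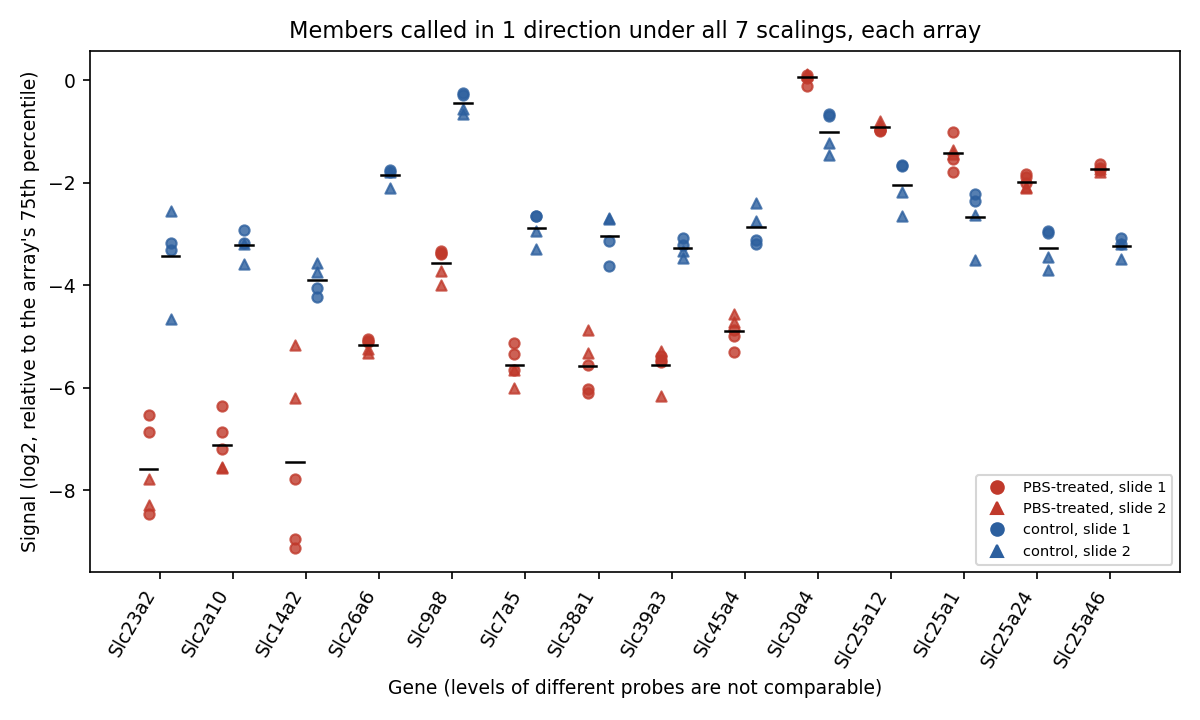
Signal of each array (y axis, log2 after subtracting the 75th percentile) for the 14 members called in 1 direction under all 7 scalings (x axis, from the largest fall to the largest rise). Red marks are PBS-treated and blue control arrays, circles slide 1 and triangles slide 2, and bars are group means. In each gene all arrays of one group lie apart from all arrays of the other, although levels of different genes are not comparable.

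Amino acid carriers had 7 lower and 2 higher members of 20 (2 and 8 with spike-in scaling), and 5 lower and 1 higher of the 8 detected everywhere. Over all genes 20.7% were lower and 31.5% higher, and over genes detected everywhere 27.6% and 31.3%. Slc7a5 encodes LAT1, the light chain that exchanges leucine and other large neutral amino acids. Slc7a5 read -5.12, -5.65, -5.34, -5.66 and -6.00 in the PBS-treated arrays and -2.64, -2.65, -3.29 and -2.94 in the control arrays. No control array overlapped the PBS-treated ones, and the fall (-2.67 ± 0.22 SE; limma, adjusted p = 2.48e-05; probe at chr8:124405136-124405195) stayed called under all scalings, with 3 of 5 PBS-treated arrays well above background, from -1.38 with spike-ins. Its heavy chain Slc3a2 (CD98hc) was not called, at -1.10, -0.89, -0.50, -0.95 and -0.88 against -0.92, -0.95, -1.34 and -1.39, a difference of 0.29 ± 0.17. Within each array, which removes a shift common to the array, Slc7a5 minus Slc3a2 averaged -4.69 ± 0.41 in the PBS-treated arrays (SD, n = 5) against -1.73 ± 0.17 (SD, n = 4) in controls (exact permutation test, two-sided, p = 0.0159, 0.0265 adjusted over 5 pairs of related carriers; 0.0159 is the smallest p the design allows). That pair differed by -2.96 between the groups, and by -1.82 with normexp. The gap between the groups in Slc7a5 alone was wider than the whole range of Slc3a2 over the arrays. The smallest possible p was thus fixed in advance for this pair too, and the test adds nothing to the call of Slc7a5. Slc38a1 (SNAT1, a sodium-coupled glutamine transporter) fell by 2.54 ± 0.31 on the log2 scale (limma, adjusted p = 0.000194). Slc38a1 read -6.01, -5.56, -6.10, -5.33 and -4.87 in the PBS-treated arrays and -3.13, -3.63, -2.68 and -2.71 in the control arrays, again with the groups apart. Slc38a2 (SNAT2, its relative that starvation induces) differed by -0.03 ± 0.23 (-0.54 on slide 1 and 0.62 on slide 2) and Slc1a4 (ASCT1) by -0.04 ± 0.42, neither called.

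The list of carriers that the stress factor ATF4 is known to induce had 8 members of 11 genes, and 5 were lower, none higher and 3 not called, beside 20.7% lower and 31.5% higher of all genes. Beside Slc7a5 and Slc38a1, the lower ones were Slc1a5 (ASCT2, a glutamine exchanger; -1.59 ± 0.18 SE), Slc6a9 (GLYT1, a glycine transporter; -1.04 ± 0.16) and Slc7a1 (CAT1, a carrier of arginine and lysine; -0.74 ± 0.12). With spike-in scaling Slc6a9 turned to 0.25, Slc7a1 to 0.55 and Slc1a5, called under 2 of the 6 other scalings, stood at -0.30. Slc7a1 read -2.89, -2.93, -2.94, -3.08 and -3.04 in PBS-treated and -2.34, -2.13, -2.43 and -2.03 in control arrays, a narrow but complete separation. Slc7a11, Slc7a3 and Slc43a1 were detected on no array. Atf4 itself, which is no carrier and was listed beside them, was higher by 1.42 ± 0.23 (SE; limma, adjusted p = 0.000865) and was higher under all 7 scalings. The median of the 8 carriers was -0.89, beside -0.02 over all genes.

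Other amino acid carriers moved each way. Slc6a6, the taurine transporter, read -4.35, -4.49, -4.24, -4.44 and -4.25 in PBS-treated and -2.69, -2.65, -2.92 and -3.10 in control arrays, apart in every array and lower at -1.51 ± 0.13 (SE; limma, adjusted p = 3.57e-05), but -0.22 with spike-in scaling, where the call was lost. Slc6a8, the creatine transporter, was 2.27-fold higher at 1.18 ± 0.22 (SE; limma, adjusted p = 0.00204), and 0.33 with normexp. Slc6a8 read -2.15, -1.91, -2.98, -2.25 and -2.56 in the PBS-treated arrays and -3.60, -3.44, -3.39 and -3.77 in the control arrays, with the groups apart. Slc7a2, a cationic amino acid carrier that cytokines are known to induce, was seen on 5 of 5 PBS-treated and no control array, and passed the rule through the former. It was at least 1.55-fold higher (means -4.77 ± 0.27 and -6.21 ± 0.19, SD, n = 5 and 4) but turned to -0.38 with normexp. The lysosomal peptide and histidine carrier Slc15a4 was lower at -1.28 ± 0.18.

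Ion and acid carriers had 9 lower and 3 higher members of 18 (2 and 8 with spike-in scaling), and 5 lower, none higher of the 6 detected everywhere. The shares were 20.7% lower and 31.5% higher over all genes, and 27.6% and 31.3% over genes detected everywhere. Slc26a6, an exchanger of chloride, bicarbonate and oxalate, had the smallest p of all members. Slc26a6 read -5.08, -5.10, -5.05, -5.32 and -5.23 in the PBS-treated arrays and -1.75, -1.79, -2.10 and -1.78 in the control arrays. The groups lay far apart with little spread in either, and the signal, above background in 4 of the 5 PBS-treated arrays, was lower (-3.30 ± 0.12 SE; limma, adjusted p = 1.18e-06; probe at chr9:108815322-108815380). Slc9a8 encodes NHE8, a sodium and proton exchanger of the Golgi and endosomes. Slc9a8 read -3.37, -3.33, -3.38, -3.99 and -3.73 in the PBS-treated arrays and -0.29, -0.25, -0.57 and -0.66 in the control arrays. It was 8.69-fold lower (-3.12 ± 0.18 SE; limma, adjusted p = 4.72e-06; probe at chr2:167302432-167302491). Both stayed lower and called under all 7 scalings, Slc26a6 at -2.01 and Slc9a8 at -1.83 with spike-ins. Slc24a3, a potassium-dependent sodium and calcium exchanger, was higher, with -3.74, -3.69, -3.68, -4.29 and -3.60 against -4.67, -4.98, -5.84 and -5.78 (1.52 ± 0.28 SE; limma, adjusted p = 0.00197), and -0.15 with normexp.

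The phosphate importers Slc20a1 (PIT1) and Slc20a2 (PIT2) were called in opposite directions. Slc20a1 read -1.70, -1.61, -1.32, -2.08 and -1.90 in the PBS-treated arrays and 0.13, -0.02, -0.64 and -0.46 in the control arrays, lower in every PBS-treated array, at -1.47 ± 0.21 (SE; limma, adjusted p = 0.00054). Slc20a2 read -3.74, -3.51, -3.99, -3.59 and -3.59 in the PBS-treated arrays and -4.14, -4.19, -4.48 and -4.08 in the control arrays, higher in every PBS-treated array by 0.54 ± 0.14 (SE; limma, adjusted p = 0.0126). Slc20a1 stood at -0.18 with spike-in scaling and Slc20a2 turned to -0.29 with normexp, and within an array the difference between the 2 genes cancels any shift common to the array, though not a change of background correction. Slc20a2 minus Slc20a1 averaged -1.96 ± 0.45 in the PBS-treated arrays (SD, n = 5) against -3.97 ± 0.30 (SD, n = 4) in controls (exact permutation test, two-sided, p = 0.0159, 0.0265 adjusted over the 5 pairs), and was 1.28 larger in PBS-treated arrays with normexp. Each gene alone already separated the groups, in opposite directions. The smallest possible p was thus fixed in advance for this pair, and the test adds nothing to the calls of the 2 genes.

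Metal carriers had 6 higher and 1 lower member of 15 (2 and 3 with normexp), beside 31.5% and 20.7% of all genes. Of the 5 detected everywhere, 2 were higher and none lower, beside 31.3% and 27.6% of genes detected everywhere. The median of these 5 was 0.07, against 0.57 over all 15. Slc39a14 encodes ZIP14, an importer of zinc, manganese and iron that inflammation is known to induce. Slc39a14 read -2.87, -3.06, -3.05, -2.75 and -2.84 in the PBS-treated arrays and -5.47, -5.69, -4.84 and -5.90 in the control arrays. It was well above background on 5 of 5 PBS-treated and on no control array, so the signal was at least 4.82-fold higher (it passed the rule through the PBS-treated arrays; probe at chr14:70703394-70703453). With normexp the difference was 0.55 and the call was lost. The plasma membrane zinc importer Slc39a1 (ZIP1) was detected everywhere and was higher, with -0.42, -0.39, -0.48, -0.50 and -0.51 against -1.08, -0.98, -0.91 and -1.14 (0.57 ± 0.10 SE; limma, adjusted p = 0.00147). Slc39a3 (ZIP3) ran the other way. Slc39a3 read -5.50, -5.38, -5.45, -6.15 and -5.27 in the PBS-treated arrays and -3.21, -3.07, -3.48 and -3.34 in the control arrays, apart in every array with 4 of 5 PBS-treated arrays above background, lower (-2.28 ± 0.19 SE; limma, adjusted p = 3.22e-05) and lower under all 7 scalings. Slc30a4, a zinc exporter of endosomes and vesicles, was higher under all 7 scalings at 1.06 ± 0.19, with 0.05, 0.10, -0.11, 0.11 and 0.11 against -0.69, -0.66, -1.46 and -1.23. The copper importer Slc31a1 was higher by 1.19 ± 0.26 (0.14 with normexp), and Slc30a9 by at least 1.28-fold (-0.45 with normexp). Slc39a7, Slc39a11, Slc39a6 and the haem carrier Slc48a1 lay within the spread, with differences of 0.07, 0.04, -0.33 and -0.46.

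Of 12 carriers listed for inflammation and metals, 5 were members. Slc39a14 and Slc7a2 were higher, Slc20a1 and Slc2a6 lower (31.5% and 20.7% of all genes), and Slc11a2 was not called. Slc11a2 (DMT1, an importer of ferrous iron) read -5.72, -6.03, -5.43, -4.48 and -4.36 and -5.67, -5.27, -3.26 and -3.62, with every slide 2 array above every slide 1 array. Its second detected probe differed by 0.80, opposite to the -0.75 of the probe chosen, so no direction is given for the gene. Slc11a1, Slc40a1, Slc39a8, Slc15a3, Slc28a2, Slc30a1 and Slc30a2 were well above background on no array.

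Mitochondrial carriers formed the largest family, 26 of 42 genes on the array, and 15 were higher, 1 lower and 10 not called (6 higher and 6 lower with normexp). Among the 15 of them detected everywhere, 8 were higher and 1 lower. The medians stood at 0.74 and 0.64, beside -0.02 over all genes and -0.07 over genes detected everywhere. Of all genes 31.5% were higher and 20.7% lower, and of genes detected everywhere 31.3% and 27.6%. Slc25a46, an outer membrane member with a role in mitochondrial shape, was higher with no overlap. Slc25a46 read -1.75, -1.71, -1.64, -1.79 and -1.73 in the PBS-treated arrays and -3.20, -3.08, -3.19 and -3.49 in the control arrays. It was 2.86-fold higher (1.51 ± 0.12 SE; limma, adjusted p = 1.94e-05) and 0.77 with normexp. Slc25a24, which exchanges ATP-magnesium for phosphate under control of calcium, read -1.83, -2.0, -1.90, -2.11 and -2.08 against -2.98, -2.95, -3.46 and -3.69 (1.28 ± 0.18). Slc25a1, the citrate carrier that feeds lipid synthesis, read -1.78, -1.53, -1.01, -1.43 and -1.37 against -2.36, -2.22, -3.50 and -2.63 (1.25 ± 0.28 SE; limma, adjusted p = 0.00516). Slc25a12 (aralar, an aspartate and glutamate carrier of the malate shuttle) read -0.98, -0.99, -0.97, -0.87 and -0.81 against -1.67, -1.65, -2.65 and -2.19 (1.12 ± 0.21 SE; limma, adjusted p = 0.00236). These 4 were higher under all 7 scalings, and control replicates 3 and 4 were lowest in the last 3.

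Some larger rises came from probes that were not well above background on every control array. Slc25a32, a carrier of folate or flavin adenine dinucleotide, was seen on 5 PBS-treated and no control array, at least 2.1-fold higher (means -4.27 ± 0.24 and -6.15 ± 0.42, SD, n = 5 and 4), and turned to -0.08 with normexp. Slc25a33, a pyrimidine nucleotide carrier, read -3.02, -2.88, -2.78, -2.78 and -2.73 against -4.65, -4.59, -5.00 and -4.36. It was higher (1.81 ± 0.15 SE; limma, adjusted p = 2.54e-05) with 2 of 4 control arrays above background, and 0.43 with normexp, without a call. Slc25a25, another ATP-magnesium and phosphate carrier (1.54), Slc25a13 (citrin; 1.31) and Slc25a40, known to import glutathione (at least 1.67-fold higher), were also higher (for Slc25a40 the call was lost without control replicates 3 and 4), and with normexp stood at -0.07, -0.26 and -0.28. A second probe of Slc25a25 differed by 1.19. Slc25a39, the closest relative of Slc25a40, was the only lower mitochondrial carrier with the scaling reported. Slc25a39 read -3.59, -3.79, -3.46, -3.40 and -3.42 in the PBS-treated arrays and -2.53, -2.28, -2.86 and -2.79 in the control arrays, lower at -0.92 ± 0.16 (SE; limma, adjusted p = 0.00122) but 0.37 with spike-in scaling.

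A further list held mitochondrial carriers of ADP and ATP, phosphate, iron, and metabolites such as citrate, aspartate and carnitine. It had 11 members of 12 genes, 5 higher, none lower and 6 not called (31.5% and 20.7% of all genes), with a median of 0.50. The ADP/ATP carrier Slc25a4 (ANT1) was well above background on all 9 arrays and higher, with 3.62, 3.65, 3.86, 3.64 and 3.71 against 3.39, 3.38, 2.98 and 3.07 (0.50 ± 0.13 SE; limma, adjusted p = 0.0119), its groups apart. Slc25a5 (ANT2) differed by 1.0 ± 0.42 and was not called (limma, adjusted p = 0.0759), and all of its slide 2 arrays lay below all slide 1 arrays. With the slide as a block it was called, at 0.89 (limma, adjusted p = 0.000936). The phosphate carrier Slc25a3 differed by -0.15 ± 0.16 and its second probe by 0.62, and the oxoglutarate carrier Slc25a11 by 0.07 ± 0.15. Mitoferrin 1 (Slc25a37) was higher by 0.98 ± 0.26 and mitoferrin 2 (Slc25a28) was at -0.15 ± 0.17. Within arrays Slc25a37 minus Slc25a28 averaged 1.68 ± 0.18 in the PBS-treated arrays (SD, n = 5) against 0.54 ± 0.50 (SD, n = 4) in controls (exact permutation test, two-sided, p = 0.0159, 0.0265 adjusted over the 5 pairs), and the difference of 1.14 between groups was 0.91 with normexp. The same test found no difference for Slc25a12 minus Slc25a13 (-0.20 PBS-treated minus control, but 1.08 with normexp, p = 0.524 by the exact test) or Slc25a4 minus Slc25a5 (-0.51, p = 0.238 by the exact test), which does not show that these pairs moved alike. The dicarboxylate carrier Slc25a10 and the carnitine carrier Slc25a20 were dim, at -0.47 and -0.57, and were not called.

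Slc35, the sugar nucleotide family, had members in each direction, 7 higher, 4 lower and 3 not called of 14. In its class of 16 the split of 7 to 4 became 11 to 0 with spike-in scaling and 1 to 7 with normexp. The class shares of 43.8% higher and 25% lower stood beside 31.5% and 20.7% of all genes. Slc35a3, which brings UDP-N-acetylglucosamine into the Golgi, was seen on 5 PBS-treated and no control array, at least 1.99-fold higher (means -4.58 ± 0.14 and -6.42 ± 0.48, SD, n = 5 and 4; -0.33 with normexp). Slc35b4, at least 1.06-fold higher, hardly cleared the floor and stood at -0.57 with normexp. Slc35b1 (0.74 ± 0.15), Slc35b2, the carrier of the sulfate donor PAPS (0.52 ± 0.12), and Slc35c1, the GDP-fucose carrier (0.65 ± 0.15), were detected on all 9 arrays and higher. The less characterised members Slc35e1, Slc35e2 and Slc35e4 were lower, at -0.93, -0.95 and -0.87, and all 3 turned with spike-in scaling, to 0.36, 0.34 and 0.42. Slc35e1 read -1.93, -2.13, -2.09, -1.59 and -1.54 in the PBS-treated arrays and -1.25, -1.25, -0.53 and -0.66 in the control arrays. Slc35d1 was lower at -1.15 ± 0.24 and turned to 0.14. The nucleoside carrier Slc29a1 (ENT1) differed by -0.08 ± 0.17.

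Carriers of carboxylates, organic ions and lipids had 2 higher and 7 lower members of 23 (6 and 0 with spike-in scaling). These were 8.7% and 30.4%, beside 31.5% and 20.7% of all genes. Slc17a5 (sialin), which exports sialic acid from lysosomes, read -0.49, -0.61, -0.42, -0.08 and -0.35 against 1.17, 1.03, 1.15 and 1.12. It was 2.84-fold lower in PBS-treated arrays (-1.51 ± 0.13 SE; limma, adjusted p = 3.34e-05) with no overlap, and -0.22 with spike-in scaling, without a call. Slc44a2, a choline carrier of the plasma membrane and mitochondria, read -3.41, -3.73, -3.71, -3.49 and -3.25 against -2.50, -2.31, -1.96 and -2.02 (-1.32 ± 0.16, and -0.03 with spike-ins). Slc27a4, which takes up fatty acids, was lower at -1.93 ± 0.46, a call lost (limma, adjusted p = 0.0693) without control replicates 3 and 4. Slc10a3 was higher by 1.66 ± 0.33 and the carnitine and carboxylate carrier Slc16a9 by at least 1.43-fold, but with normexp they turned to -0.05 and -0.42. Slc10a1, the bile acid importer known from hepatocytes and named here after its values were seen, was well above background on all 9 arrays, with 4.60, 4.25, 4.48, 4.75 and 4.48 against 5.63, 5.46, 6.06 and 6.08 and a difference of -1.29 ± 0.17.

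Some members varied strongly with the slide. The first 3 PBS-treated and the first 2 control arrays shared slide 1, and the others lay on slide 2. For 19 members every slide 2 array lay above every slide 1 array in both groups, 14.2% of members beside 16.8% of all genes, so the share is near that of other genes. For 3 members (Slc25a5, Slc29a1 and Slc39a7) every slide 2 array lay below, beside 3.47% of all genes. The members shown here were chosen after their values were seen. Slc16a12, a creatine and carboxylate carrier, read -7.01, -5.52, -7.71, -0.77 and -0.77 in PBS-treated and -5.51, -5.69, 0.34 and 0.33 in control arrays, a rise from slide 1 to slide 2 of 5.98 and 5.93. Slc22a13 rose between slides by 5.42 and 4.70 and Slc6a16 by 4.42 and 3.92. One of the 19 (Slc16a8) was called between the groups. With the slide as a block, 15 of the 19 were called lower and none higher, and 22 members were called that had not been before. Their probes held a median of 51.7% G and C, beside 41.7% in the other 115 members and 45% in all genes of the same slide pattern. All 76 called members kept their direction on each slide alone. For 35 of the higher and 34 of the lower members this was fixed in advance, because their groups did not overlap over all arrays.

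**Figure D4:**
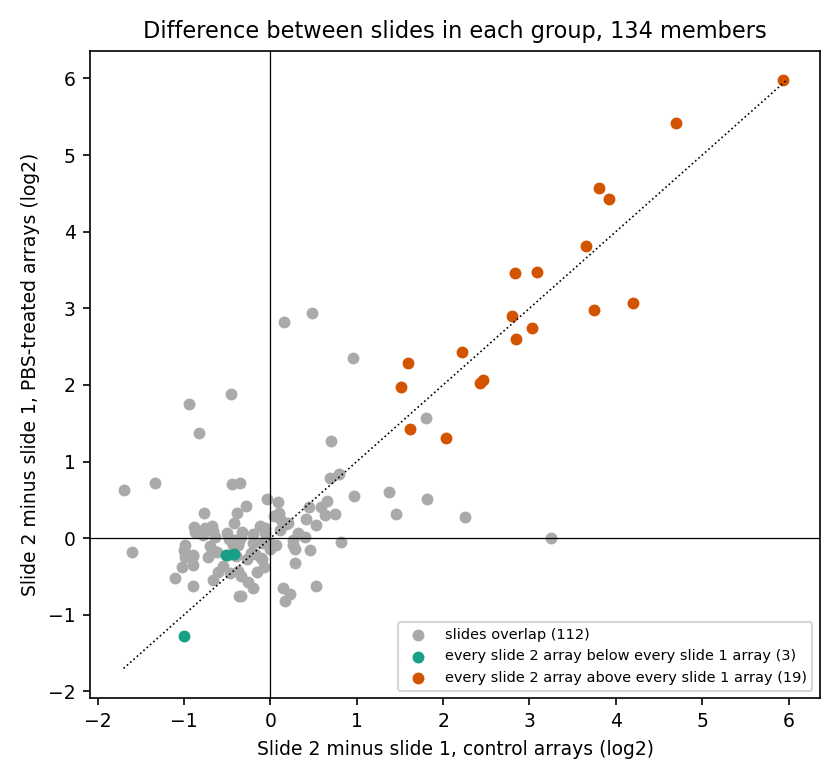
Difference between slide 2 and slide 1 (log2) in the control arrays (x axis) and in the PBS-treated arrays (y axis) for each of the 134 members, with the dotted line marking equal differences. The 19 members in orange, where every slide 2 array lies above every slide 1 array, follow the line, up to Slc16a12 at 5.93 and 5.98.

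In all, 13 members had a second detected probe, and for 11 of these it differed in the same direction as the probe chosen. Slc35e1 differed by -3.47 on its second probe and Slc6a9 by -0.88, whereas Slc1a5 differed by -0.34 with overlapping groups. The exceptions were Slc11a2 and Slc25a3. Probes of the higher members held a median of 39.2% G and C and those of the lower members 41.7%, beside 40% and 45% for all higher and all lower genes.

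Companion genes that do not carry the Slc name, most of them of transport, were listed beside the members. Of these, 20 of 33 were tested, 9 higher, 2 lower and 9 not called, beside 31.5% higher and 20.7% lower of all genes. These counts include Atf4 (higher), Mtf1 (lower) and Txnip (not called), which are no transport genes. Both subunits of the mitochondrial pyruvate carrier were higher under all 7 scalings, Mpc1 (Brp44l on the array) by 1.34 and Mpc2 (Brp44) by 0.86. The sideroflexins Sfxn1 and Sfxn3 and the outer membrane carrier homologue Mtch2 were higher by 1.09, 0.62 and 0.78. Atp1b1, a subunit of the sodium pump, was higher by 1.31 but turned to -0.28 with normexp. Bsg, the chaperone of the lactate carriers, differed by -0.36 and was not called.

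Of 12 fibroblast markers, 10 were detected, with Col1a1, Col1a2, Col3a1, Pdgfra, Vim, Fn1, Dcn and S100a4 on all arrays and Thy1 on none. Of the 10, 3 were higher (Dcn 2.03, Lum 1.87 and S100a4 1.45) and 3 lower (Col1a1 -1.35, Pdgfra -1.95 and Fn1 -1.17). The log2 of their summed signal was 4.68 to 4.78 in PBS-treated and 3.70 to 4.40 in control arrays. A sum is weighted to the brightest probes, and S100a4 was the brightest in both groups (means 3.72 and 2.27). Of 10 leukocyte markers, 5 were detected (summed in the same way, -0.10 to 0.82 in PBS-treated and 1.10 to 1.65 in control arrays), Itgam and Cd3e on all arrays, while Ptprc was detected on 1 array and Cd68 and Lyz2 on none. Endothelial markers gave 2 of 5 (Kdr and Pecam1, both lower; Cdh5 on no array), epithelial markers 1 of 5 (Krt19, lower but 0.36 with spike-in scaling; Epcam on none) and muscle and fat markers 1 of 6, Fabp4, which was higher by 4.56 while Adipoq, Plin1 and Myod1 were detected on no array. Fabp4 and S100a8 (3.04 higher, on no control array well above background) moved with the same groups as the carriers, and their part in the carriers' differences was not tested.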

How the data were processed

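EV RNA was purified with a miRNeasy kit, labelled with cyanine 3 and hybridised to 1-colour Agilent 8x60K mouse arrays, 5 PBS-treated and 4 control. Per the file headers, the authors quantified spots with Feature Extraction 10.7.3.1, and the deposited scanner files give each spot's background-corrected intensity and marks for spots well above background. A deposited table of log2 values, apparently quantile normalized by the authors' own pipeline (median 5.97 on each array; its centring and background treatment are not stated), served as an alternative.

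Control and non-uniform spots (3 to 29 per array) were left out and spots of a probe averaged, leaving 55681 probes. The log2 processed signal was centred on each array's 75th percentile of the 8422 probes detected on every one of the 9 arrays. Probes well above background on at least 4 arrays (17765) were kept, and the probe of highest mean stood for a gene, for 14307 genes under the array's own gene names. By accession, 131 of the 134 members matched a RefSeq gene table. Probe positions are on mm9, without exon or UTR annotation here. The 2 groups were fitted in limma 3.58.1 in R 4.3.3 (lmFit, eBayes, two-sided), after a test on simulated data. Folds for probes not well above background in a group are bounds against the lowest signal of probes above background, written "at least". These bounds hold for the scaling reported only, and other scalings or background corrections can give smaller differences. Differences within arrays were compared by exact permutation over samples (scipy 1.17.1). Other steps used pandas 2.3.3 and numpy 2.4.6 under Python 3.11.15, and plots matplotlib 3.10.9.

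Members were grouped by Slc number. Members, classes and lists were chosen with earlier results of these data known. Named genes were the 10 largest rises and falls with separate groups, up to 2 called members of smallest p per class and direction, all members of 4 lists, and listed companion and marker genes; further members of their classes were chosen after their values were seen. Alternatives were 6 other scalings or background corrections (normexp offset 50; 8 spike-in probes), other filters and probe rules, a replicate block, the slide as a block, each slide alone, arrays left out and the methods' t-test. The number of arrays limits the precision. Results for some genes are not reported here.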

Additional observations from a re-analysis of the deposited data

Results flagged for a closer look

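For 8 of the named members, 1 array stood apart from the rest of its group by Dixon's test, which chance flags in about 1 in 20 groups. Slc16a9 read -7.58 in control replicate 2 (nearest other control array -6.66), and its difference was 1.55 without it. Slc1a4 read -2.65 in control replicate 4 (nearest -4.16), with a difference of 0.37 without it, still not called. Slc24a3 read -4.29 in PBS-treated replicate 4 (nearest -3.74; 1.64 without it). Slc25a13 read -5.18 in PBS-treated replicate 3 (nearest -4.15; 1.54 without it). Slc26a6 read -2.10 in control replicate 3 (nearest -1.79; -3.38 without it). Slc35b4 read -4.90 in PBS-treated replicate 3 (nearest -5.35; 0.82 without it). Slc37a4 read -5.77 in PBS-treated replicate 5 (nearest -4.88; -0.14 without it, not called). Slc39a3 read -6.15 in PBS-treated replicate 4 (nearest -5.50; -2.13 without it). None of these 8 members gained or lost a call without that array.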

How the results depend on the processing

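The counts of 38 higher and 38 lower members depended mostly on the scaling and background correction, and the cause was not tested. Spike-in scaling gave 72 higher and 9 lower, and normexp scaled to the detected probes 9 higher. The percentile over all probes gave 15 lower and the deposited values gave 24 lower. Testing only probes well above background on all 9 arrays, which leaves fewer members, gave 14 and 22. Of the 55 members on all arrays (14 higher, 22 lower), 7 and 6 were called with the percentile over all probes, 30 and 3 with spike-in scaling, and 9 were higher both with normexp and without a filter on dim probes. Leaving out 1 array at a time gave 33 to 41 higher and 34 to 39 lower, or 12 to 15 and 19 to 22 of the members on all arrays. Without control replicates 3 and 4, an alternative chosen after seeing the data, the counts were 37 and 36.

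With normexp scaled to the detected probes 20 of the 38 called rises turned, among the named members Slc10a3 (-0.05), Slc16a9 (-0.42), Slc19a1 (-0.27), Slc20a2 (-0.29), Slc24a3 (-0.15), Slc25a13 (-0.26), Slc25a25 (-0.07), Slc25a32 (-0.08), Slc25a40 (-0.28), Slc2a12 (-0.63), Slc35a3 (-0.33), Slc35b4 (-0.57) and Slc7a2 (-0.38). With spike-in scaling 15 of the 38 called falls turned, among the named members Slc25a39 (0.37), Slc2a6 (0.04), Slc35d1 (0.14), Slc35e1 (0.36), Slc6a9 (0.25) and Slc7a1 (0.55). Uncalled members turned and were called there, namely Slc1a4 (1.25), Slc25a10 (0.82), Slc25a20 (0.72), Slc25a28 (1.14), Slc25a3 (1.14) and Slc38a2 (1.26), and Slc38a2 also on slide 2 alone (0.62).

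Replicate numbers marked no shared source. Deviations of same-numbered arrays correlated at 0.70, 0.73, -0.54 and 0.74, following the slide. With a replicate block 35 members were higher and 41 lower, 12 and 22 among those on all arrays, and Slc25a4 and Slc2a12 lost their calls. For the 12 members seen in no control array and the 1 seen in no PBS-treated array, signal over background allows only a bound.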
